A study of Homo sapiens with 6 samples.

Results

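The acute phase genes SERPINA3, SERPINA1, HP, HPX, FGA, FGB, FGG, ORM1, ORM2 and SOCS3 were examined in HepG2 cells with and without overexpression of APPLE. The members were chosen by symbol, with the ORF-Flag against NC differences of these same libraries already known, so every member value below was selected on this contrast and is a description, not a test. The table held 10 of 10 members among 20422 genes, and 9 of them, all but SOCS3, were among the 12386 genes with enough counts to be tested. Calls among members are given only to describe the fit over all genes.

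HepG2 is an established human liver cancer line, and RNA-Seq was made from 3 samples of NC cells, which carried the empty vector, and 3 samples of ORF-Flag cells, which overexpressed the APPLE microprotein encoded by ASH1L-AS1 with a Flag tag fused to it. The sample descriptions speak of transfected plasmids, whereas the methods of the study describe lentiviral stable lines under puromycin selection, so the mode of delivery is given in both forms. No source used here says if the samples within a group came from independent cultures, and the p-values therefore measure the spread between these samples, which may be technical. ASH1L-AS1 was not analysed here and therefore offered no check of the group labels. For NC, replicate 1 held 20081203 counts, replicate 2 held 24907524 and replicate 3 held 30088457. For ORF-Flag, the corresponding totals were 26866148, 17494668 and 27015836. Values by library are given below in this order of replicates.

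In the acute phase response, hepatocytes change the output of plasma proteins after injury or infection. IL-6 family cytokines bind receptors that share the gp130 subunit (IL6ST) and activate JAK kinases and STAT3, while IL-1 and TNF act through NF-kB, and C/EBP and HNF factors bind many of the same liver promoters. Positive acute phase proteins include protease inhibitors, haemoglobin and haem scavengers, fibrinogen and orosomucoids, and SOCS3 is a STAT3-induced inhibitor that closes the loop.

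The hepatocyte origin of the line was checked first. All 10 hepatocyte markers were tested. ALB, the gene of serum albumin, stood at 7038 ± 280.5 CPM (SD, n = 3) in NC, where CPM denotes read counts scaled for library size with TMM factors, and APOB, the apolipoprotein of very low density lipoprotein, at 7892 ± 235 CPM. The markers' summed level lay between 26711 and 27886 CPM in NC and between 27572 and 27990 CPM in ORF-Flag. TTR, the carrier of thyroxine and retinol-binding protein, was low for a hepatocyte marker. Per kilobase of exon, ALB was at 2084 CPM and TTR at 2.46 CPM in NC. By edgeR's quasi-likelihood test with Benjamini-Hochberg adjustment, 2 of the 10 rose and 0 fell, beside 2.47% and 1.98% of all tested genes. The markers' median log2 fold change was 0.04. The 2 that rose were FGB, a member, and APOH, a phospholipid-binding plasma protein. SERPINA1, also among the 10, is a member too. FGB lost its call in 5 of the 6 fits that left out 1 library. APOH had a log2 fold change of 0.15 (SE 0.03, edgeR adjusted p = 0.011) and was above NC in 3 of 3 ORF-Flag libraries. Its call did not hold when ORF-Flag replicate 1 was removed (0.13, edgeR adjusted p = 0.069, the highest over its alternatives, which began at 0.00043). Of the 10, 1 (APOB) lay lower and 4 higher at an unadjusted p below 0.05 in edgeR, and DESeq2, limma-trend and limma-voom called 0 lower.

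Most markers of macrophages, endothelial cells and stellate cells were at low or 0 counts, apart from CD68, PECAM1 and ACTA2, while several cholangiocyte markers were abundant. Of 8 macrophage markers, PTPRC, MARCO and C1QA had 0 counts in every library and 6 stayed under 10 counts. The most abundant macrophage marker, CD68, a lysosomal protein that many cells make, was at 39.3 ± 2.92 CPM in NC and 38.4 ± 1.42 CPM in ORF-Flag. The summed macrophage level was 43.1, 38.2 and 38.8 CPM in NC and 38.8, 38.5 and 40.6 CPM in ORF-Flag, so the groups overlapped. Of 5 endothelial markers, KDR and TEK had 0 counts throughout, and the most abundant, PECAM1, was at 4.36 ± 0.474 CPM in NC and 5.70 ± 0.380 CPM in ORF-Flag. The summed endothelial level was 4.75, 4.16 and 5.01 CPM in NC and 6.56, 5.51 and 6.26 CPM in ORF-Flag, without overlap. Of 7 stellate cell markers, LRAT had 0 counts throughout and ACTA2 was the most abundant, at 67.8 ± 4.33 CPM in NC and 71.3 ± 0.363 CPM in ORF-Flag. The summed stellate level, mostly ACTA2, was 71.7, 71.4 and 64.0 CPM in NC and 72.3, 72.4 and 72.2 CPM in ORF-Flag, again without overlap. PDGFRB, the other tested stellate marker, went the other way, from 0.827 ± 0.120 to 0.618 ± 0.113 CPM (log2 fold change -0.41, SE 0.31), with overlapping groups. The median over the 2 tested stellate markers was -0.17. In edgeR's fit no gene of these 3 lists was called in either direction (1 endothelial marker, PECAM1, was higher at an unadjusted p below 0.05), and DESeq2, limma-trend and limma-voom called 0. Among 5 cholangiocyte markers KRT19 and EPCAM were abundant, at ranks 155 and 165 of the 12386 tested genes per kilobase of exon in NC. KRT19, a keratin of bile duct cells, rose from 499 ± 26.3 to 578 ± 5.45 CPM (log2 fold change 0.21, SE 0.04, edgeR adjusted p = 0.00064, between 1.9e-07 and 0.0090 over its alternatives). EPCAM, an epithelial adhesion molecule, was at 496 ± 9.73 CPM in NC and 492 ± 3.41 CPM in ORF-Flag, and SOX9, a transcription factor of duct cells, at 59.6 ± 4.005 and 59.8 ± 3.99 CPM, both with overlapping groups. KRT7 and CFTR had at most 12 and 3 counts. The summed cholangiocyte level was 1079, 1045 and 1039.9 CPM in NC and 1129, 1124 and 1139 CPM in ORF-Flag. The ORF-Flag libraries were the higher ones for the endothelial, stellate and cholangiocyte sums, as for SERPINA3, HP and 11.5% of all tested genes. PDGFRB, EPCAM and SOX9 overlapped between the groups. The part of the marker lists in the members' differences was not tested.

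Across the members, SERPINA3, HP and FGB were higher in ORF-Flag, by 1.57-fold, 1.38-fold and 1.10-fold. The call of FGB was lost in 5 of the 6 fits that left out 1 library, as given below. With a threshold of 0.05 on the p adjusted over all tested genes, 3 of the 9 tested members rose and 0 fell, beside 2.47% of all tested genes that rose (306) and 1.98% that fell (245). At an unadjusted p below 0.05, edgeR put 5 members higher and 1, ORM2, lower, and DESeq2, limma-trend and limma-voom called 0 members lower after adjustment. The share of all tested genes at this unadjusted cut is not given, so nothing is read from the unadjusted counts of the members or of any list. Every ORF-Flag library exceeded every NC library in 5 members, and the reverse held in 0, beside 11.5% and 10.9% of all tested genes. The members' median log2 fold change was 0.09, and that of all tested genes was -0.001. With the members chosen on this contrast, nothing is read from these shares. Together the 10 members took 0.688%, 0.699% and 0.711% of the counts in NC and 0.754%, 0.742% and 0.737% in ORF-Flag, of which SERPINA1 alone took between 0.418% and 0.455%. In RNA of whole cultures, a change in how many cells make a transcript and a change in its level per cell cannot be told apart.

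**Figure D1:**
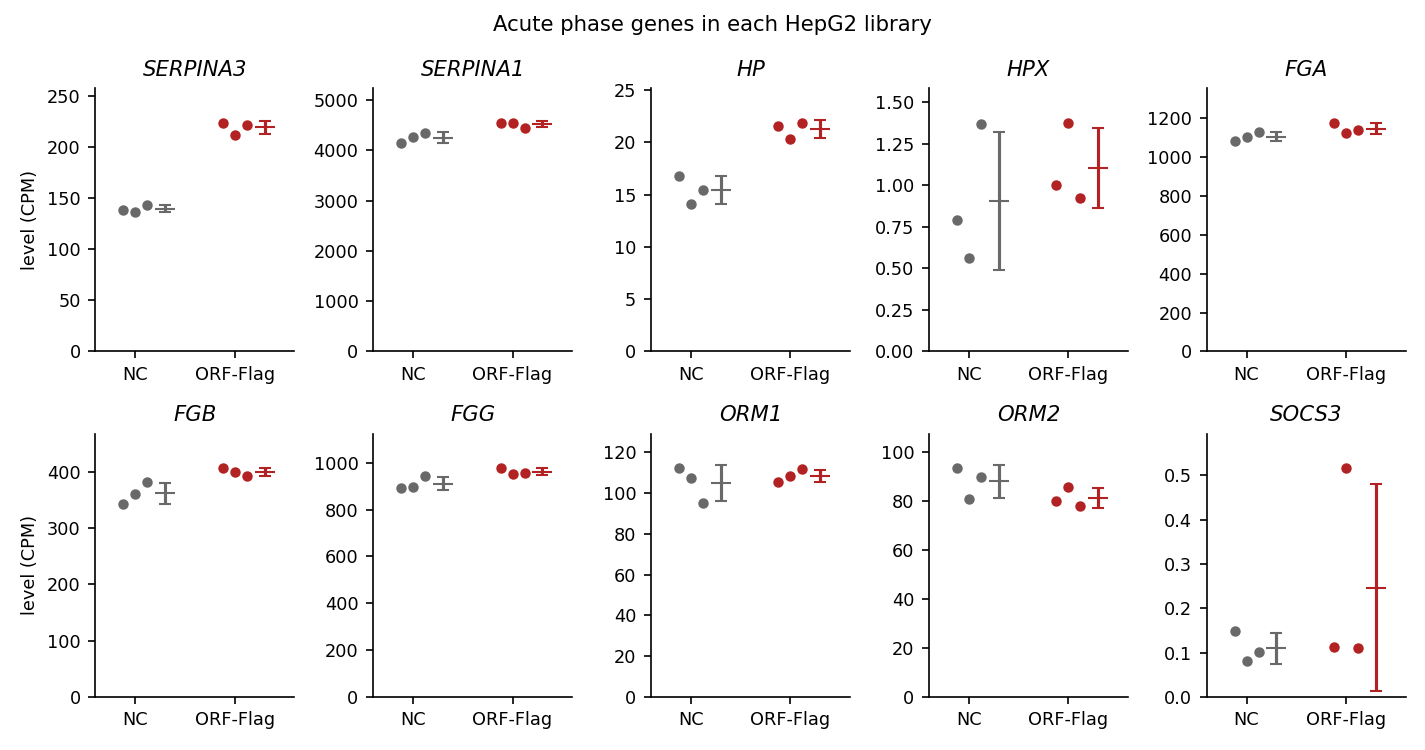
Level of each acute phase gene in every library (CPM, linear axes from 0), with points for the 3 NC (grey) and 3 ORF-Flag (red) libraries and bars for the mean ± SD. SERPINA3 and HP show the clearest gap between groups, while HPX, FGA, ORM1, ORM2 and SOCS3 overlap.

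The protease inhibitors among the members were both serpins. SERPINA3 (ENSG00000196136.18, chromosome 14, 94612377 to 94624055, plus strand, GENCODE v29 on GRCh38) encodes alpha-1-antichymotrypsin, an inhibitor of cathepsin G and other chymotrypsin-like proteases. The stretch upstream of its RefSeq start site (GRCh38.p14, chr14:94612141-94612296, plus strand) is shown because, with all libraries, this gene had the largest log2 fold change among the tested members. It ends where the annotation places an exon.
SERPINA3: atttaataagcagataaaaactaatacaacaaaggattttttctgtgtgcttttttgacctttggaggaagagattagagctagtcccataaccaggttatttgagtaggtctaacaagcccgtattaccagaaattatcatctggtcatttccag
The SERPINA3 level was 139, 137 and 143 CPM in the NC libraries, against 224, 212 and 222 CPM in the ORF-Flag libraries. All ORF-Flag libraries were thus above all NC libraries, and the gap was wide against the spread within either group. The means were 139.6 ± 3.41 and 219.7 ± 6.36 CPM (± SD, n = 3 each), with a log2 fold change of 0.65 (SE 0.04). It held at between 0.64 and 0.68 over 15 alternatives of tool, scaling, filter, block and left-out library, with the call in all 15. Between 2803 and 6023 counts per library stood behind these values. Of the exon bases of SERPINA3, 31.8% also lie in an exon of ENSG00000273259, a gene on the same strand, and 57.7% of the 31-base stretches of the longest SERPINA3 transcript occur in transcripts of that gene. It had 10, 2 and 9 counts in NC and 7, 2 and 5 counts in ORF-Flag. How reads in the shared exons were assigned is not given in the sources used here, so the absolute level of SERPINA3 is uncertain.

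SERPINA1 (ENSG00000197249.14, chromosome 14, 94376747 to 94390693, minus strand) encodes alpha-1-antitrypsin, the main plasma inhibitor of neutrophil elastase, and is separated from SERPINA3 by 221.7 kb. It stood at 4149.6, 4271 and 4352 CPM in NC and at 4555, 4549 and 4452 CPM in ORF-Flag. The groups did not overlap, but the lowest ORF-Flag and the highest NC library were close to each other. The means were 4258 ± 102 and 4519 ± 58.1 CPM (± SD, n = 3 each), with a log2 fold change of 0.09 (SE 0.03) that was not called with all libraries and was called without NC replicate 3 (0.10). Of the 10 serpin genes of this cluster on 14q32, 8 were tested, with a median log2 fold change of 0.08. Of the 8, 1 rose (SERPINA3) and 0 fell, beside 2.47% and 1.98% of all tested genes. In edgeR 3 of the 8 were higher and 0 lower at an unadjusted p below 0.05. DESeq2, limma-trend and limma-voom called 0 lower. Without NC replicate 3, 3 serpin genes rose, SERPINA1 and SERPINA10 (0.16) with SERPINA3. After SERPINA1 the most abundant was SERPINA5, the protein C inhibitor, at 318 ± 10.9 CPM in NC and 333 ± 15.3 CPM in ORF-Flag (log2 fold change 0.06, SE 0.04, edgeR adjusted p = 0.36, between 0.24 and 0.78 over its alternatives). SERPINA2 and SERPINA9 had fewer than 10 counts in every library.

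HP (ENSG00000257017.10, chromosome 16) encodes haptoglobin, which binds free haemoglobin. It was at 16.8, 14.1 and 15.4 CPM in NC and at 21.6, 20.3 and 21.9 CPM in ORF-Flag. Each ORF-Flag library exceeded each NC library. The means were 15.5 ± 1.34 and 21.3 ± 0.859 CPM (± SD, n = 3 each), with a log2 fold change of 0.47 (SE 0.07), between 0.41 and 0.53 over the 15 alternatives and called in all of them, from between 340 and 591 counts per library. HPR, a near copy that encodes haptoglobin-related protein, starts 2.09 kb beyond the end of HP, and 18.0% of the 31-base stretches of the longest HP transcript also occur in HPR transcripts. Reads from shared stretches may have been dropped or split, so both levels are uncertain. In these counts HPR was at 6.35 ± 0.798 CPM in NC and 5.83 ± 1.53 CPM in ORF-Flag (log2 fold change -0.08, SE 0.15, edgeR adjusted p = 0.83, between 0.46 and 0.99 over its alternatives). Whether the HP and HPR changes differ was not tested.

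HPX (ENSG00000110169.12, chromosome 11) encodes hemopexin, the plasma carrier of free haem. It had 16, 14 and 41 counts in NC and 27, 24 and 25 counts in ORF-Flag. The groups overlapped, and NC replicate 3 was the highest in counts. The log2 fold change was 0.20 (SE 0.31) and lay between -0.06 and 0.69 over the alternatives, the highest being the value without NC replicate 3, and the gene was called in none of them. Among 6 other genes of haem and haemoglobin clearance, 5, all but CD163, were tested, with a median of -0.08. Of these 5, 0 rose and 1 fell, beside 2.47% and 1.98% of all tested genes. In edgeR 0 of the 5 were higher and 2 lower at an unadjusted p below 0.05. DESeq2, limma-trend and limma-voom called 0 higher. The gene that fell was LRP1, an endocytic receptor that takes up haem-hemopexin complexes among many ligands. In NC it had the highest CPM of the list, while per kilobase of exon the biliverdin reductase BLVRA was above it (43.6 against 30.5 CPM per kb). LRP1 went from 636 ± 24.1 to 570.2 ± 1.54 CPM (log2 fold change -0.16, SE 0.03, edgeR adjusted p = 0.0062, lower in 3 of 3 ORF-Flag libraries), and its call was lost without NC replicate 2 (-0.13, adjusted p = 0.061, the highest over alternatives that began at 0.00012). BLVRA, the next in CPM, was at 79.5 ± 4.61 CPM in NC and 77.9 ± 1.64 CPM in ORF-Flag. Without NC replicate 3, HMOX1, the inducible haem oxygenase, fell as well (-0.17), for 2 genes in all.

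Fibrinogen, the clotting precursor cut by thrombin into fibrin, is assembled from the products of FGA, FGB and FGG, which lie side by side on chromosome 4 with gaps of 12.04 and 13.37 kb. FGB (ENSG00000171564.12) reads along the plus strand, and FGA (ENSG00000171560.17) and FGG (ENSG00000171557.17) along the minus strand. The upstream stretches of FGB (chr4:154562730-154562955, plus strand) and FGA (chr4:154590767-154590992, minus strand), both from RefSeq on GRCh38.p14 and trimmed before the first annotated exon, are shown because these chains share 1 protein and 1 locus but differed in their calls. That of ORM1 (chr9:114322848-114323055, plus strand) is added as a member with no call. Whether the FGB and FGA changes differ was not tested. Capitals mark whole matches to the motifs TTCNNNGAA (STAT), CTGGGAA (IL-6 responsive), TTNNGNAAT (C/EBP) and GTTAAT (HNF1 core), searched on both strands.
FGB: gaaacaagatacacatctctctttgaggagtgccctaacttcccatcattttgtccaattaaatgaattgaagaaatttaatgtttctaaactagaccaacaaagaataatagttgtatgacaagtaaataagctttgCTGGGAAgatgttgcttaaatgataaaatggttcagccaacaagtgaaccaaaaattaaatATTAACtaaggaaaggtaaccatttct
FGA: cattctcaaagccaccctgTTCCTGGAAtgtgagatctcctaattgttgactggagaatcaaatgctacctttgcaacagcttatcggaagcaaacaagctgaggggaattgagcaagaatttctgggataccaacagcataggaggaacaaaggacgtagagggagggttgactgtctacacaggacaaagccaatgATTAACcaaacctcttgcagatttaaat
ORM1: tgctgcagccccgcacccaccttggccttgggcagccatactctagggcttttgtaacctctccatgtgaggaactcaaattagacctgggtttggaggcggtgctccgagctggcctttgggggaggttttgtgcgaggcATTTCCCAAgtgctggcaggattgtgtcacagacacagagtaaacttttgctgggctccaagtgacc
In FGB the capitals are an IL-6 responsive match (CTGGGAA) 112 bases before the start site and an HNF1 match on the other strand (ATTAAC). FGA carries a STAT match (TTCCTGGAA) 231 bases before its start site and the same HNF1 letters. In ORM1 the capitals are a C/EBP match (ATTTCCCAA), and the same 9 letters lie 64 bases before the start site of SERPINA3, past the end of the stretch shown for it.

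RefSeq windows of 300 bases, 250 before and 50 after a start site, matched 8 of the 10 members (HP and ORM2 had none), with 11 windows in all. The STAT motif occurred in 1 of these 8 members (FGA), the IL-6 responsive motif in 4 (HPX, FGB, FGG and SOCS3), the C/EBP motif in 4 (SERPINA3, HPX, FGB and ORM1) and the HNF1 motif in 3 (SERPINA1, FGA and FGB). Counted by window, the motifs occurred in 1, 5, 5 and 4 of the 11, in the same order. Of all 35116 windows of this length, 7.66%, 10.8%, 11.0% and 6.88% held them. No matches of different motifs overlapped in the members. A match describes letters only and says nothing of binding.

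FGB stood at 344, 360.5 and 381 CPM in NC and at 407, 399.7 and 392 CPM in ORF-Flag. The groups did not overlap, with NC replicate 3 nearest to ORF-Flag. The means were 362 ± 18.8 and 399.6 ± 7.45 CPM (± SD, n = 3 each), with a log2 fold change of 0.14 (SE 0.04). The call of FGB was lost in 5 of the 6 fits that left out 1 library, in which the log2 fold change was 0.11 without NC replicate 1, 0.14 without NC replicate 2, and 0.13, 0.14 and 0.16 without ORF-Flag replicates 1, 2 and 3. It was kept without NC replicate 3 (0.18). FGG was at 891, 898 and 942 CPM in NC and at 978, 951 and 957 CPM in ORF-Flag. These groups did not overlap either, although the closest pair of libraries differed little. The log2 fold change of FGG was 0.08 (SE 0.03), called only without NC replicate 3 (0.10). FGA was at 1083, 1105 and 1128 CPM in NC and at 1178, 1126 and 1137 CPM in ORF-Flag. Here ORF-Flag replicate 2 fell just under NC replicate 3, so the groups overlapped. The log2 fold change of FGA was 0.05 (SE 0.03), not called in any of the 15 alternatives. Per kilobase of exon, FGB made up 19.6%, 20.1% and 20.5% of the summed fibrinogen level in NC and 20.9%, 21.2% and 20.7% in ORF-Flag. The share of FGG was 38.0 ± 0.255% in NC and 37.9 ± 0.165% in ORF-Flag, and that of FGA 42.0 ± 0.442% and 41.1 ± 0.257%. In all 6 libraries FGB held the smallest share of the fibrinogen transcripts.

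**Figure D2:**
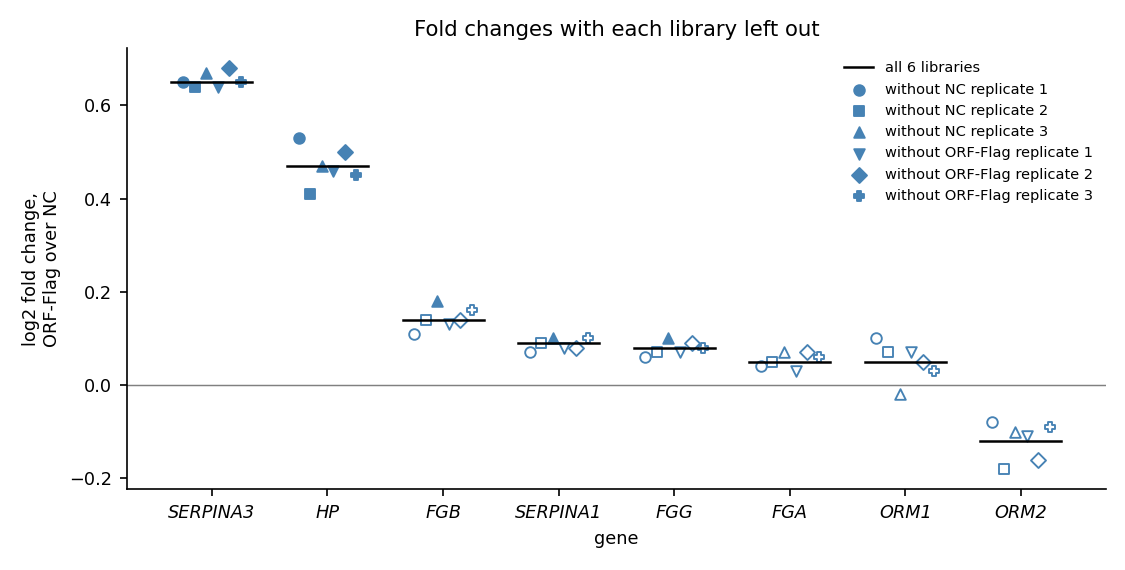
Log2 fold change of 8 members (ORF-Flag over NC) with all 6 libraries (black line) and after removal of each single library (symbols, filled where the adjusted p was below 0.05). SERPINA3 and HP stay filled in all 6 fits, while FGB is filled only without NC replicate 3.

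ORM1 and ORM2 encode the orosomucoids, also called alpha-1-acid glycoproteins, plasma proteins that bind lipophilic drugs. ORM1 (ENSG00000229314.6) and ORM2 (ENSG00000228278.5) lie 3.39 kb apart on chromosome 9. Of the 31-base stretches of their transcripts, 56.1% of those of ORM1 occur in ORM2 and 59.3% of those of ORM2 in ORM1, so the division of reads between them is uncertain. ORM1 was at 112, 107 and 95.3 CPM in NC and at 105, 108 and 112 CPM in ORF-Flag, and ORM2 at 93.3, 80.6 and 89.6 CPM and at 79.8, 85.7 and 77.8 CPM. Both genes overlapped between the groups. The log2 fold change was 0.05 (SE 0.05) for ORM1, which became -0.02 without NC replicate 3, and -0.12 (SE 0.05) for ORM2, the only tested member below 0 with all libraries. SOCS3 (ENSG00000184557.4, chromosome 17) had 3, 2 and 3 counts in NC and 3, 9 and 3 counts in ORF-Flag. All but that of ORF-Flag replicate 2 are at or under a floor of 3 counts. SOCS3 did not pass the low-count filter, and with no filter it was not called (log2 fold change 0.97, edgeR adjusted p = 0.63).

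**Figure D3:**
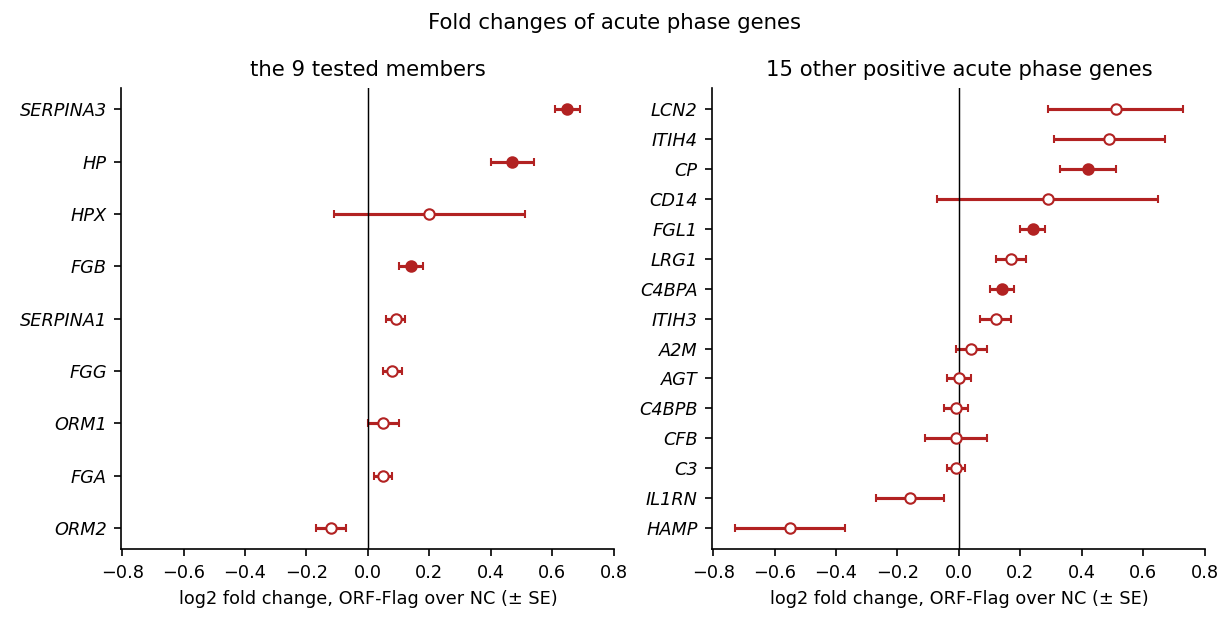
Log2 fold change of ORF-Flag over NC with its SE (edgeR, 3 libraries a group) for the 9 tested members (left) and 15 other positive acute phase genes (right), filled where the adjusted p was below 0.05. SERPINA3 (0.65) and HP (0.47) stand highest among members, and CP, FGL1 and C4BPA are the filled points on the right.

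Levels of different genes were compared per kilobase of exon. In NC, SERPINA1 was highest at 869 ± 20.8 CPM per kb and ranked 30 among the tested genes. FGA followed at 279 ± 5.58, FGG at 253 ± 7.72, and FGB at 134 ± 6.94 CPM per kb. ORM1 and ORM2 came next with 117 ± 9.76 and 116 ± 8.65 CPM per kb, which do not differ beyond their spread. SERPINA3 was at 27.9 ± 0.680, HP at 2.86 ± 0.248, HPX at 0.250 ± 0.115 and SOCS3 at 0.0401 ± 0.0128 CPM per kb. With all libraries, the tested members with the largest log2 fold changes were therefore not the most abundant: SERPINA3 ranked 1388 and HP 7677 of 12386. In ORF-Flag SERPINA3 reached 43.9 ± 1.27 and HP 3.93 ± 0.159 CPM per kb, and the order of the genes was the same. With the longest transcript as length in place of all exon bases, SERPINA3 was at 52.5, HP at 5.11 and HPX at 0.549 CPM per kb in NC, each over 1.5 times higher, so these levels rest on the length used, and the ranks are those for all exon bases. FGG (448) was then above FGA (300.5 CPM per kb), so the order of these chains rests on it too.

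**Figure D4:**
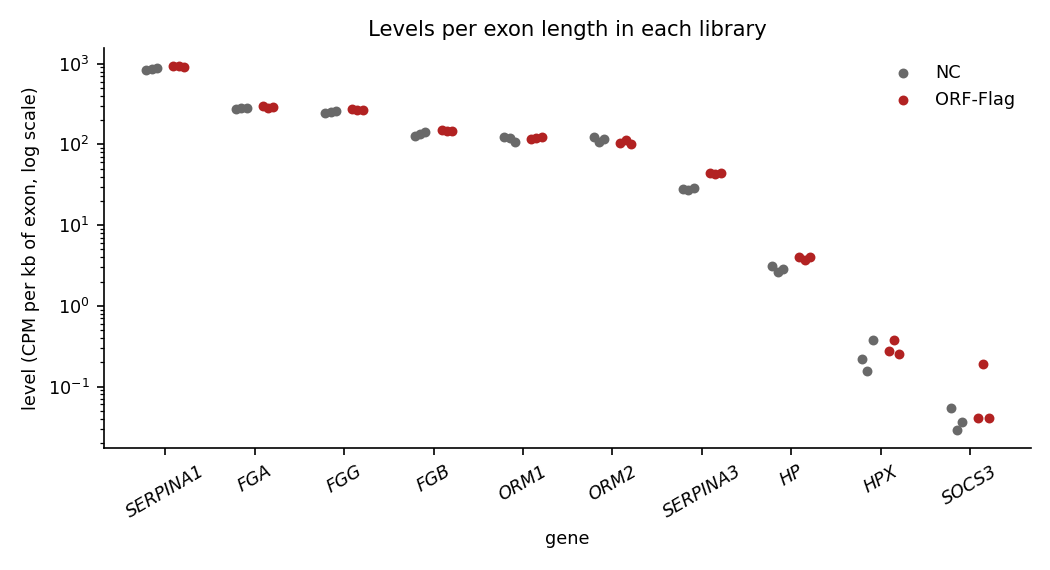
Level of each member per kilobase of exon (CPM per kb, log axis) in the 3 NC (grey) and 3 ORF-Flag (red) libraries, ordered by the NC mean. The genes span from SERPINA1 at 869 to SOCS3 at 0.0401 CPM per kb in NC.

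Other genes listed as positive acute phase genes, a class in which most plasma proteins rise during inflammation, were mostly not called. Of 24, 15 were tested, 3 rose and 0 fell, beside 2.47% and 1.98% of all tested genes, with a median log2 fold change of 0.12. At an unadjusted p below 0.05, edgeR put 7 higher, the 3 that rose with LRG1 (log2 fold change 0.17), ITIH3 (0.12), ITIH4 (0.49) and LCN2 (0.51), and 1 lower, HAMP, which encodes the iron regulator hepcidin (3.20 ± 0.507 CPM in NC and 2.19 ± 0.0598 CPM in ORF-Flag, log2 fold change -0.55, SE 0.18). HAMP was called lower with no low-count filter (edgeR adjusted p = 0.047, between 0.047 and 0.25 over its alternatives). DESeq2, limma-trend and limma-voom called 0 lower. CRP, SAA1, SAA4 and APCS had 0 counts in every library, and SAA2, LBP and C9 stayed under 10. The serum amyloid A genes share sequence, with 62.8% of the 31-base stretches of SAA1 found in other genes and 64.4% of those of SAA4 found in SAA2-SAA4, so their reads may have been dropped and their levels are uncertain. FGL1, a fibrinogen-like protein secreted by hepatocytes, rose from 169.99 ± 8.001 to 201 ± 5.48 CPM (log2 fold change 0.24, SE 0.04, edgeR adjusted p = 0.00037, higher in 3 of 3 ORF-Flag libraries, between 5.1e-08 and 0.0065 over its alternatives). CP, the copper-carrying ferroxidase ceruloplasmin, rose from 12.9 ± 1.23 to 17.2 ± 2.29 CPM (log2 fold change 0.42, SE 0.09, edgeR adjusted p = 0.0079), a call that did not hold when ORF-Flag replicate 1 was removed (0.30, adjusted p = 0.092, the highest over alternatives that began at 4.1e-05). The annotation gives 19.4% of its exon bases to the neighbour HPS3 as well. C4BPA, a chain of the C4b-binding protein, rose from 82.6 ± 0.961 to 91.1 ± 3.17 CPM (log2 fold change 0.14, SE 0.04, edgeR adjusted p = 0.046), but its call was lost in each of the 6 fits without 1 library (log2 fold changes of 0.13, 0.15 and 0.13 without NC replicates 1, 2 and 3, and 0.15, 0.11 and 0.16 without ORF-Flag replicates 1, 2 and 3) as well as with DESeq2, limma-voom, library sizes without TMM and upper quartile factors (adjusted p from 0.028 to 0.23 over its alternatives). Without ORF-Flag replicate 1, 1 gene of the list rose, FGL1. The genes of the list with the highest CPM, A2M and C3, a protease trap and the central complement component, were at 3451 ± 283 and 1772 ± 38.5 CPM in NC and 3546 ± 191 and 1759 ± 22.2 CPM in ORF-Flag, with overlapping groups. Per kilobase of exon, AGT was above C3 in NC (241 against 213 CPM per kb).

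Negative acute phase genes, whose plasma proteins decrease in inflammation, were 9, of which 8, all but HRG, were tested and 0 rose or fell in edgeR, with a median of 0.02. At an unadjusted p below 0.05, 2 (ALB and ITIH2) were higher and 0 lower, and DESeq2, limma-trend and limma-voom called 0 in either direction. ALB was at 7038 ± 280.5 CPM in NC and 7436 ± 148 CPM in ORF-Flag (log2 fold change 0.08, SE 0.03), without overlap between the groups, and TF, the iron carrier transferrin, at 4094 ± 33.0 and 4067 ± 170.3 CPM, with overlap. Without NC replicate 3, 1 gene of the list rose, ITIH2 (0.11), a heavy chain of the inter-alpha-trypsin inhibitor.

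The signalling upstream of these genes was examined from ligands to targets. Of 9 IL-6 family and IL-1 ligands, 4 were tested and 0 rose or fell in edgeR (1 higher and 0 lower at an unadjusted p below 0.05, and 0 by DESeq2, limma-trend and limma-voom), with a median of 0.22. IL6 had 0 counts in every library, and IL11, OSM and TNF stayed under 10. LIF was the most abundant ligand at 14.2 ± 0.786 CPM in NC and 15.6 ± 1.65 CPM in ORF-Flag, and IL1A was at 1.47 ± 0.111 and 1.41 ± 0.165 CPM. CLCF1 was at 1.32 ± 0.173 CPM in NC and 2.11 ± 0.355 CPM in ORF-Flag (log2 fold change 0.69, SE 0.22, edgeR adjusted p = 0.069, between 0.045 with no low-count filter and 0.26 over its alternatives). All 8 receptors were tested, 1 rose and 0 fell, beside 2.47% and 1.98% of all tested genes. The receptors' median was 0.09 (2 higher and 0 lower at an unadjusted p below 0.05, and 0 lower by the other tools). OSMR, the oncostatin M receptor, rose from 84.4 ± 5.07 to 93.9 ± 2.22 CPM (log2 fold change 0.15, SE 0.04, edgeR adjusted p = 0.048), and the call was lost with DESeq2, limma-voom, library sizes without TMM and upper quartile factors, and in 5 of the 6 fits without 1 library, all but that without NC replicate 3 (adjusted p from 0.016 to 0.22 over its alternatives). The log2 fold change of OSMR was 0.11 without NC replicate 1, 0.18 without NC replicate 2, and 0.17, 0.15 and 0.14 without ORF-Flag replicates 1, 2 and 3. Without NC replicate 3, 2 receptors rose, OSMR and IL6ST (0.14). With all libraries IL6ST, the shared gp130 chain, was at 138 ± 9.20 CPM in NC and 149 ± 5.55 CPM in ORF-Flag, and TNFRSF1A, a TNF receptor, at 109 ± 2.28 and 108 ± 0.542 CPM. Both overlapped between the groups.

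Of 7 JAK and STAT genes, all tested, 0 rose or fell in edgeR, with a median of -0.06. At an unadjusted p below 0.05, 2 were lower, TYK2 (log2 fold change -0.18) and STAT5A (-0.73), and 0 higher. Limma-trend called 1 lower (STAT5A), and DESeq2 and limma-voom called 0. JAK1 was at 164 ± 7.37 CPM in NC and 161 ± 2.62 CPM in ORF-Flag, and STAT3, the factor that IL-6 activates, at 136 ± 3.99 and 141 ± 1.72 CPM (log2 fold change 0.06, SE 0.04, edgeR adjusted p = 0.42, between 0.23 and 0.66 over its alternatives). Without NC replicate 3, 1 gene of this list fell, TYK2 (-0.24, against -0.12 and no call without NC replicate 1), and with no low-count filter 2 fell, TYK2 (-0.18, edgeR adjusted p = 0.011, between 0.0028 and 0.27 over its alternatives) and STAT5A (-0.73, edgeR adjusted p = 0.019, between 0.019 and 0.24). A replicate block also called both lower (TYK2 -0.18, edgeR adjusted p = 0.021, and STAT5A -0.78, edgeR adjusted p = 0.032). These are transcript levels, and phosphorylation was not measured in these libraries. Of 15 inhibitors of this pathway other than SOCS3, all tested, 0 rose or fell in edgeR (SOCS2, SOCS5 and PIAS1, 3 genes, were higher and 0 lower at an unadjusted p below 0.05, with 1, SOCS2, higher by limma-trend and 0 by DESeq2 and limma-voom), with a median of -0.02. SOCS2, with a log2 fold change of 0.40, was also called with no low-count filter (edgeR adjusted p = 0.037, between 0.037 and 0.21 over its alternatives). It was called with a replicate block as well (0.41, edgeR adjusted p = 0.043). The most abundant were the phosphatases PTPN11, at 116 ± 3.72 CPM in NC and 118 ± 2.30 CPM in ORF-Flag, and PTPN1, at 59.8 ± 2.18 and 57.4 ± 2.16 CPM.

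Of 12 STAT3 target genes, all tested, 1 rose and 1 fell, beside 2.47% and 1.98% of all tested genes. The list's median was 0.07. A log2 fold change above 0 was found in 8 of the 12 (66.7%), beside 49.5% of all tested genes. Among the other signalling lists this share was 75% for the ligands and 75% for the receptors. It was 40% for the inhibitors, 28.6% for JAK and STAT and 26.7% for the transcription factors. At an unadjusted p below 0.05 edgeR put 5 higher and 1 lower. DESeq2 called 0 higher and 1 lower, limma-trend 1 and 1, and limma-voom 1 and 0. JUNB, an AP-1 subunit, rose from 14.5 ± 1.23 to 17.6 ± 0.869 CPM (log2 fold change 0.28, SE 0.08, edgeR adjusted p = 0.036), a call lost with DESeq2 (adjusted p = 0.082) and in 5 of the 6 fits without 1 library, all but that without NC replicate 1 (over its alternatives 0.011 to 0.18). Its log2 fold change was 0.29 and 0.22 without NC replicates 2 and 3, and 0.33, 0.27 and 0.26 without ORF-Flag replicates 1, 2 and 3. MYC, a growth-promoting transcription factor, fell from 178 ± 8.44 to 162 ± 2.44 CPM (log2 fold change -0.13, SE 0.04, edgeR adjusted p = 0.042), a call lost with limma-voom (adjusted p = 0.051) and in 4 of the 6 such fits (over its alternatives 0.012 to 0.16). Its log2 fold change was -0.09 without NC replicate 1 and -0.13, -0.12 and -0.14 without ORF-Flag replicates 1, 2 and 3. PIM1, a serine/threonine kinase, was at 13.8 ± 1.63 CPM in NC and 16.6 ± 0.343 CPM in ORF-Flag (log2 fold change 0.26, SE 0.08, edgeR adjusted p = 0.073, between 0.030 and 0.21 over its alternatives), without overlap, and was called higher without NC replicate 2 (0.36) and with no low-count filter. HIF1A, the hypoxia-inducible factor, had the highest CPM of the list, at 304 ± 9.75 CPM in NC and 315 ± 6.94 CPM in ORF-Flag. Per kilobase of exon, MYC and HIF1A did not differ beyond their spread in NC (59.4 ± 2.81 and 59.0 ± 1.89 CPM per kb). Of 15 transcription factors that bind acute phase promoters, all tested, 0 rose or fell in edgeR (2 lower, CEBPA and FOXA1, and 0 higher at an unadjusted p below 0.05, with 1, CEBPA, lower by limma-trend and 0 by DESeq2 and limma-voom), with a median of -0.05. HNF4A was at 146 ± 6.47 CPM in NC and 141 ± 3.33 CPM in ORF-Flag, and NFKB1 at 89.4 ± 2.37 and 90.0 ± 1.25 CPM. CEBPA, which encodes a factor of hepatocyte differentiation, had a log2 fold change of -0.31 (SE 0.09, edgeR adjusted p = 0.052, between 0.00045 and 0.32 over its alternatives) and was called lower without NC replicate 3 and without ORF-Flag replicate 3 (-0.42 in both fits), and with upper quartile factors and no low-count filter (-0.31 in both). Without NC replicate 1 it was -0.19 and not called, and the groups overlapped, with NC replicate 3 at 23.2 CPM and ORF-Flag replicate 3 at 24.7 CPM.

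**Figure D5:**
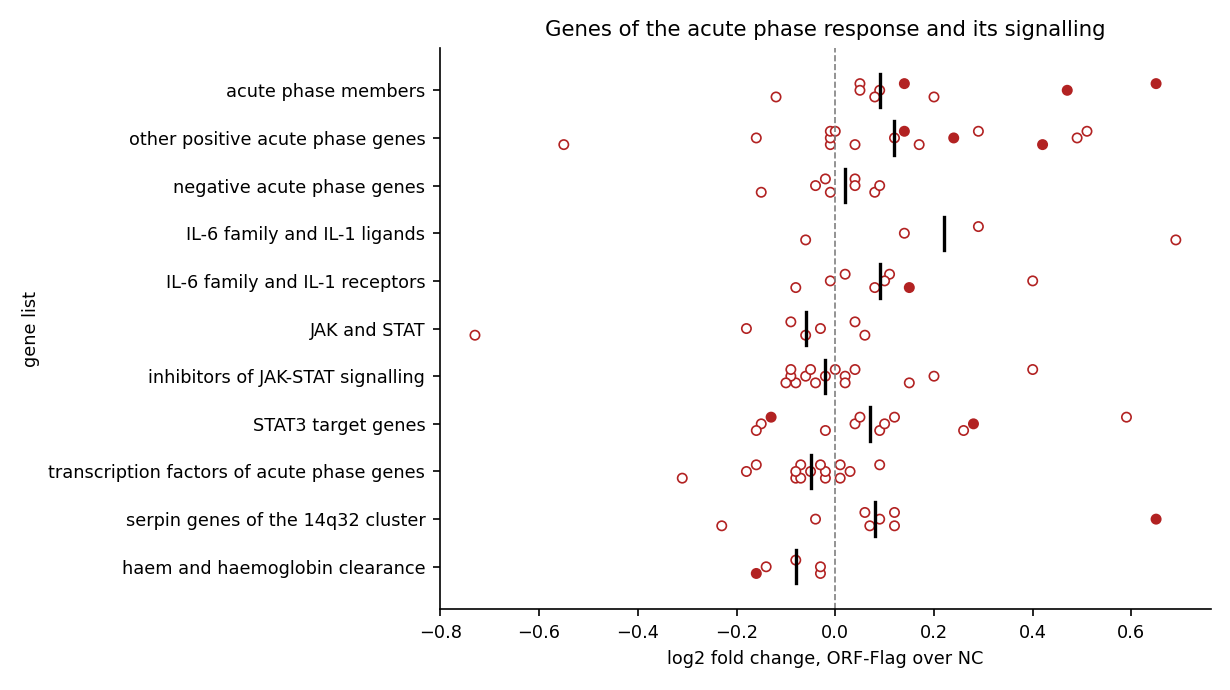
Log2 fold change (ORF-Flag over NC) of every tested gene in the lists of the acute phase response and its signalling, filled where the adjusted p was below 0.05, with the list median as a black bar and the median of all 12386 tested genes (-0.001) as a dashed line. The marker lists are not drawn. Medians of the 11 lists shown lie between -0.08 and 0.22, and 5 of these lists have no filled point.

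Likeness to SERPINA3 was measured over the 6 libraries as the root mean square difference of log2 CPM, each gene centred on its own mean, among 8686 genes at 10 CPM or more. The closest genes were PPP1R15A, a stress-induced phosphatase subunit (0.0736), PLK2, a polo-like kinase (0.0961), CCN2, a matricellular protein (0.0969), SOX5, a transcription factor (0.102), and EDN1, the endothelin-1 precursor (0.115). PPP1R15A was at 42.9, 42.5 and 45.2 CPM in NC and at 63.9, 61.5 and 61.1 CPM in ORF-Flag. HP was the nearest member, at rank 8 (0.119), and FGB ranked 459 (0.258). SERPINA1 and FGG followed at 1207 and 1282, with ORM2 at rank 7764. The profiles share libraries and the same group contrast, so these ranks describe the 6 libraries only.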

How the data were processed

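RNA-Seq of HepG2 cells gave 3 NC and 3 ORF-Flag libraries, grouped by the sample labels. Per gene, the authors deposited unnormalized read counts for 20422 Ensembl genes. The submitters' processing notes name cutadapt 1.11, HISAT2 2.1.0, featureCounts 1.6.0, edgeR and GRCh38, while the annotation release and strand setting are not given in the sources used here. Without a stated strand setting, reads of overlapping or antisense genes may have been mixed or dropped. Total counts were between 17494668 and 30088457.

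Symbols were matched for 20421 genes. The groups were compared with edgeR 4.0.16 (R 4.3.3): filterByExpr, TMM, glmQLFit, glmQLFTest and Benjamini-Hochberg adjustment over 12386 genes, at an adjusted p below 0.05. The paper's methods name limma, which was an alternative (limma 3.58.1, trend and voom) beside DESeq2 1.42.0, other scalings and filters, a replicate block and each library left out. The tests were tested on simulated data. Gene and exon lengths, overlaps and 31-base sharing came from GENCODE v29, and upstream stretches from RefSeq (GRCh38.p14). Tables were made with pandas 2.3.3 and numpy 2.4.6, and figures with matplotlib 3.10.9. Pairs of libraries within a group differed by between 2.39 and 5.23 chi-square per degree of freedom, so all 6 were kept as separate samples.

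The members and lists were chosen with earlier results of these data known. Named genes were the members, HPR, up to 6 called genes and the 2 highest in CPM of each list, and the 5 genes most like SERPINA3. In the marker lists, markers at 0 and the most abundant were named in the same way, and genes under 10 counts in every library could be named. ENSG00000273259, HPS3, TTR, SOX9, KRT7, PDGFRB, AGT and genes at an unadjusted p or under an alternative alone were named after their values were seen.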

Additional observations from a re-analysis of the deposited data

How the results depend on the processing

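Of the 9 tested members, SERPINA3 and HP kept their direction and call in all 15 alternatives, and HPX, FGA, ORM1 and ORM2 were called in none. The number of members that rose was 3 with DESeq2, limma-trend, limma-voom, each other scaling and filter, and the replicate block, and between 2 and 5 with 1 library left out, with 5 without NC replicate 3, where SERPINA1 and FGG were added. The members' median stayed between 0.07 and 0.10. Over all genes, the number that fell was 414 with no low-count filter (410 rose) and between 68 and 556 with 1 library left out, and the number that rose was between 131 and 502 with 1 library left out. The lowest counts came from leaving out ORF-Flag replicate 3, the highest from leaving out NC replicate 3. The share of rises among calls was 55.5% with all libraries and lay between 47.4% and 65.8% with 1 library left out. The cause of these shifts was not tested. Same-numbered libraries of the groups deviated together only weakly (correlations of 0.0666, 0.0266 and 0.0448), so the numbers were not taken to pair the samples. With the replicate block, 387 genes rose and 344 fell, and 3 members were called. Among the other lists the block ended no call and added 3, TYK2 (log2 fold change -0.18, edgeR adjusted p = 0.021) and STAT5A (-0.78, adjusted p = 0.032), so that 2 JAK and STAT genes fell, and SOCS2 (0.41, adjusted p = 0.043), so that 1 inhibitor rose. SOCS3, with at most 9 counts in any library, was tested only with no low-count filter and was not called. HPX had between 14 and 41 counts, and the part of depth in its missing call was not tested.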
